A study of Danio rerio with 6 samples.

Results

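The H3K9me3 peaks of zebrafish heart tissue at 6 days post amputation (6 dpa) were set against those of uncut heart. All peaks of both lists were taken, rows that repeated a position were dropped, and a peak was called shared when it overlapped a peak of the other list by at least 1 bp. This left 6216 peaks at 6 dpa and 4488 in uncut heart, 10704 of the 66487 peaks in the 6 lists of the series. Trimethylation of lysine 9 on histone H3 (H3K9me3, spelled H3K9M3 in the labels) was profiled by ChIP-seq, the sequencing of DNA that an antibody to the modified histone pulls down. The 6 dpa library came from hearts with the tip of the ventricle cut off, and the uncut library from hearts left whole. Fish of all libraries were 1 to 1.5 years old, the source was labelled heart tissue, and the same Millipore antibody lot was used at both times. A 9 dpa library of the same mark and 3 libraries of lysine 9 acetylation (H3K9ac) at the same times served as further lists. Each mark and time had 1 library, so every difference below compares libraries, and no test was made between times. The strain and the number of hearts pooled are not given in the sources used here.

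H3K9me3 is laid down by SET domain methyltransferases and bound by heterochromatin protein 1, and it is best known for compacting and silencing repeats, gene-poor arms and the genes of other lineages. Acetylation of the same lysine is typical of active promoters, and a single histone tail cannot carry both modifications at that residue. Zebrafish, unlike adult mammals, can rebuild cardiac muscle after loss of the ventricle tip. A peak in whole heart tissue can come from any of its cell types, and fewer cells with the mark cannot be told apart from less of the mark per cell. An H3K9ac peak lay within 2 kb of a transcription start site (TSS) in 8 of 15 contractile genes at 6 dpa. In uncut heart it was 13 of 15. No contractile gene had an H3K9me3 peak there at either time. Only genes named in some list were counted, and marker genes of other tissues had an H3K9ac peak too (3 of 4 at 6 dpa and 2 of 4 in uncut heart). These counts therefore do not check the labelled tissue.

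The uncut library was much the shallower. The most frequent local read density behind the peaks, taken as the background of a library, was 10.83 reads per kb at 6 dpa and 4.10 in uncut heart, a ratio of 2.641. The 6 dpa peaks covered 7.197 Mb and held 541481 tags (reads), and the uncut peaks covered 5.16 Mb and held 245779. Tags per kb inside peaks were 6.947 times the background at 6 dpa and 11.62 times in uncut heart. Each ratio was taken over the library's own called peaks, so it does not compare enrichment at equal sites or equal depth. The smallest peak that was called held 17 tags at 6 dpa and 11 in uncut heart. Depth, the ratio of tags to background and the amputation changed together between these libraries and cannot be told apart by the lists alone.

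Strong H3K9me3 peaks were found at both times, and weak ones mostly at 1 time. Of the 6 dpa peaks 2562, or 41.2% (Wilson 95% interval 40 to 42.4), overlapped an uncut peak, and 57.1% of the uncut peaks (55.6 to 58.5) overlapped a 6 dpa peak. This left 3654 peaks in the 6 dpa list alone and 1926 in the uncut list alone. All intervals here cover counting error only. The authors' score orders the peaks within a list and starts at 50 (it equals 10 times minus log10 of p, so a higher score is a smaller p). Among 6 dpa peaks with a score from 50 to 60, 16.1% were shared, and from 200 to 400 it was 96.6%. In the uncut list the corresponding shares were 35% and 98.8%. Of the 125 uncut peaks with a score of 400 or more, all overlapped a 6 dpa peak, while 9 of the 214 such 6 dpa peaks had no uncut partner. At the edge of the lists, the 200 lowest 6 dpa peaks (scores up to 50.91) were shared in 10% of cases and the 200 lowest uncut peaks (up to 51.36) in 27%.

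**Figure D1:**
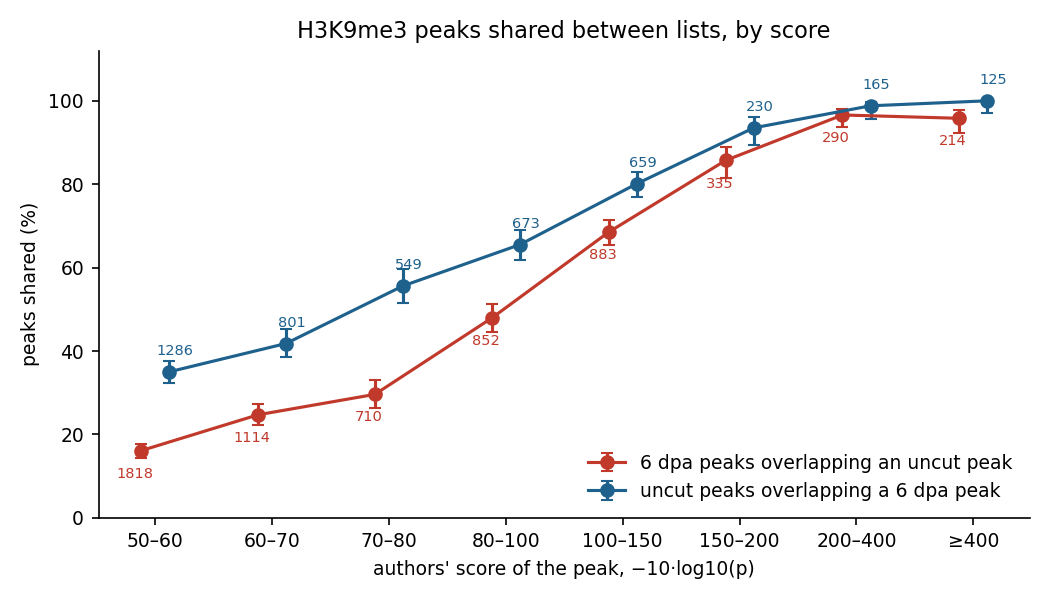
Share of H3K9me3 peaks that overlapped a peak of the other list (y axis, percent) by the authors' score of the peak (x axis), at 6 dpa (red) and in uncut heart (blue). Points are shares, bars are Wilson 95% intervals and the small figures are the numbers of peaks; the share is 16.1% in the lowest bin and 95.8% in the highest at 6 dpa, where it peaks at 96.6% in the bin before, and 35% and 100% in the same bins in uncut heart.

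The peaks of 1 list alone were shorter and held fewer tags than shared ones. Median length was 819.5 bp in 6 dpa-only peaks (order-statistic 95% interval 811 to 831) and 797.5 bp in uncut-only peaks (784 to 811). Shared peaks had a median of 1035 bp as called at 6 dpa and of 1058 bp as called in uncut heart. Raw tags were at a median of 30 in 6 dpa-only peaks and 17 in uncut-only peaks, and of 51 and 30 in the shared peaks of the same libraries. A score of at least 100 was reached by 9.44% of 6 dpa-only and 7.68% of uncut-only peaks. In the shared class it was reached by 53.7% of peaks at 6 dpa and by 40.2% in uncut heart. These values describe how the classes were formed, since a weak peak is more easily missed in the other list.

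How many of the 6 dpa-only peaks a library of the uncut depth would have called turned on the scaling. When the tags and the local background of every 6 dpa peak were reduced by the ratio of the backgrounds, 1418 of the 6216 peaks still reached the lowest score. Of the 3654 6 dpa-only peaks 223 were among them, or 6.1% (5.37 to 6.93), against 46.6% of shared peaks (44.7 to 48.6). Every shared peak overlapped a called uncut peak, so this scaling also dropped peaks at sites that the uncut library had called. When tags were instead reduced by the ratio seen at shared sites, a factor of 0.57, and the background still by 0.3786, 3637 of the 3654 kept a score of at least 50. Cutting the background more than the tags gives each peak a higher ratio of tags to background, so near-total retention follows from that choice and supports nothing further. Shared sites also had to pass the lowest score in both libraries. The number of sites that gained the mark cannot be read from the count of 3654.

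Peaks of the 6 dpa list alone differed in position at promoters. Of the 6 dpa-only peaks 297, or 8.13% (7.29 to 9.06), came within 2 kb of a TSS, against 58, or 3.01% (2.34 to 3.87), of the uncut-only peaks. Among shared peaks it was 2.93% as called at 6 dpa and 2.97% as called in uncut heart, so the excess lay in the 6 dpa-only class. In the authors' own annotation a 5′ UTR was hit by 5.36% of 6 dpa-only peaks (4.68 to 6.14), by 0.987% of uncut-only peaks (0.632 to 1.54) and by 0.664% of shared peaks of either library. Introns were hit by 26.3% of 6 dpa-only, 24.3% of uncut-only and 24.1% of shared 6 dpa peaks. No gene was annotated to 69.7%, 72.7% and 73.2% of the same classes. The 9 dpa library, with a background of 9.24 reads per kb, had 2.6% of its 4771 H3K9me3 peaks within 2 kb of a TSS (2.18 to 3.09), beside 5.98% of all 6 dpa peaks (5.42 to 6.6) and 2.99% of all uncut peaks (2.53 to 3.53). With both lists cut to scores of at least 100 and the classes formed anew, the share was 3.75% (2.7 to 5.2) of 906 6 dpa-only peaks. For 367 uncut-only peaks it was 2.45% (1.3 to 4.59). These sets include peaks that overlapped a weaker peak of the other list. Of the classes as first formed, 345 6 dpa-only peaks scored at least 100, 17 of them near a TSS, and 148 uncut-only peaks, 2 of them near a TSS. At the background scaling the share was 4.93% (2.78 to 8.62) of the 223 6 dpa-only peaks left. In both settings the intervals of the classes overlapped.

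**Figure D2:**
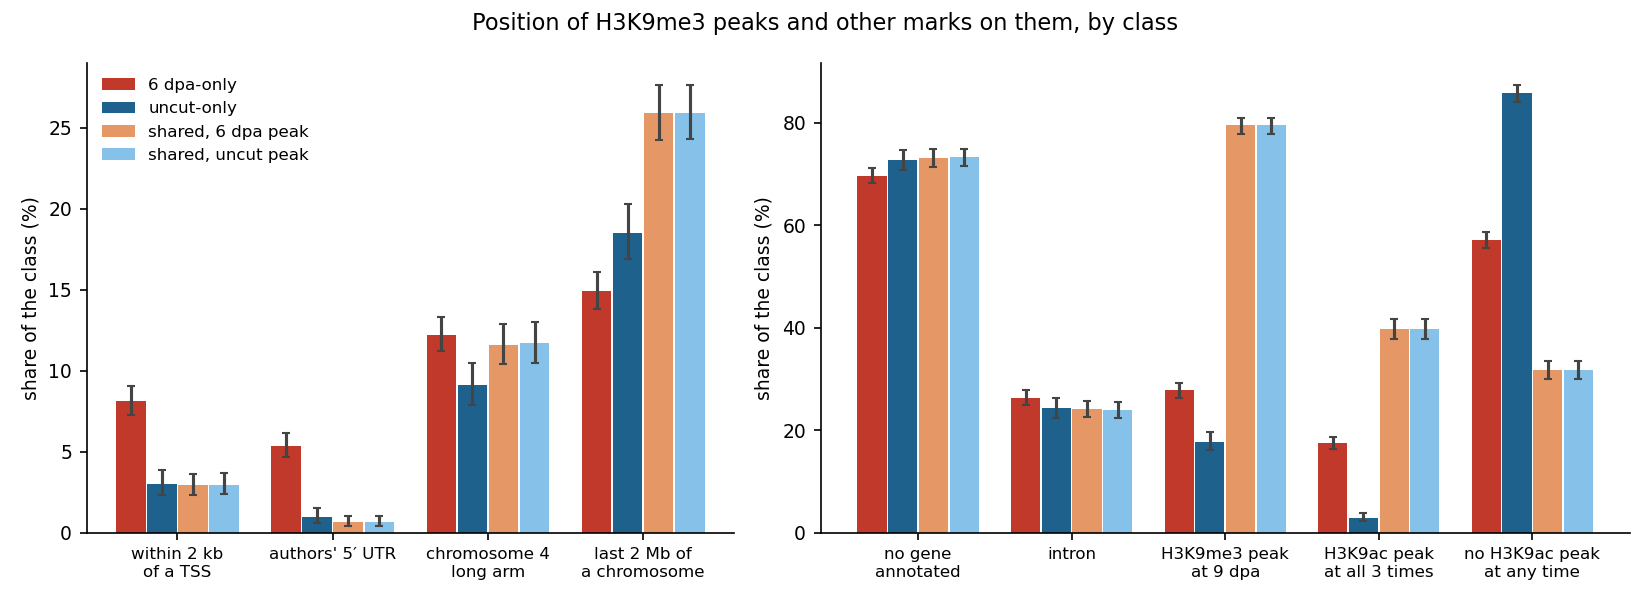
Share of each class of H3K9me3 peak (y axes, percent) at a given position (left, and the first 2 groups at right) or overlapped by a peak of another list (other groups at right); bars are Wilson 95% intervals. Peaks found at 6 dpa alone (dark red) stand above the other classes within 2 kb of a TSS (8.13%) and in 5′ UTRs (5.36%), and shared peaks stand above both list-only classes in the last 2 Mb of chromosomes and in overlap with H3K9me3 at 9 dpa.

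The 297 promoter peaks of the 6 dpa list alone were gathered near the start sites. The highest point of the peak, its summit, lay within 250 bp of a TSS in 130 of them, or 43.8% (38.2 to 49.5). In the uncut-only class this held for 10 of 58 promoter peaks (17.2%, 9.64 to 28.9), and among shared promoter peaks as called at 6 dpa for 5 of 75 (6.67%, 2.88 to 14.7). The median distance from summit to TSS was 323 bp in 6 dpa-only, 915.5 bp in uncut-only and 1290 bp in shared promoter peaks as called at 6 dpa. The bin that held the most summits was the first 250 bp downstream of the TSS, with 88 of the 284 summits that lay within 2 kb. These peaks were also weak. Their median score was 60.2 and their median tag count 29, and 17 of the 297 reached a score of 100.

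**Figure D3:**
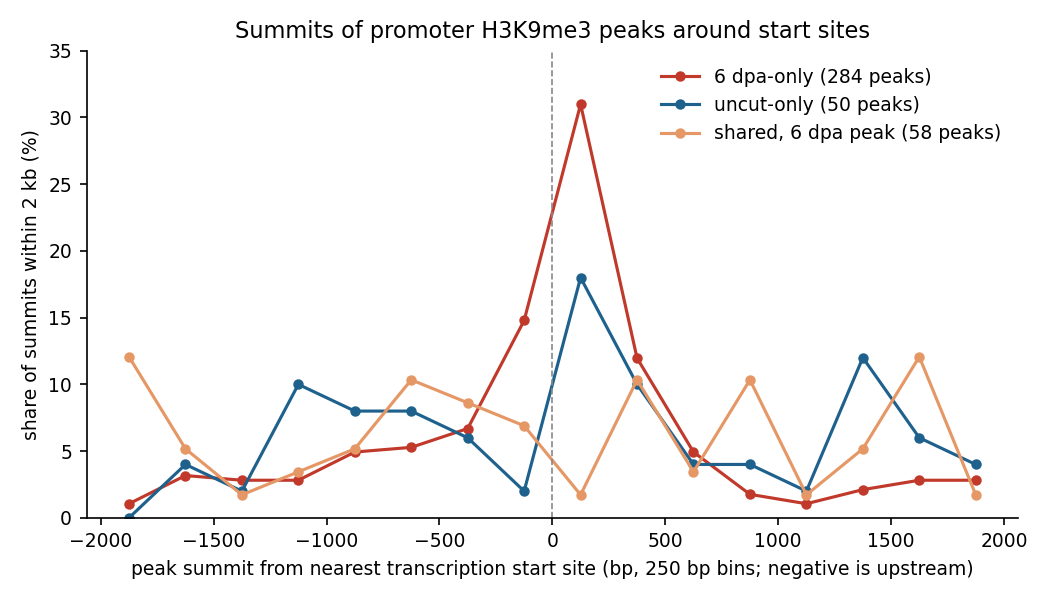
Position of peak summits relative to the nearest TSS (x axis, bp, in 250 bp bins; negative values are upstream) as the share of the summits within 2 kb in each class (y axis, percent). The line of 6 dpa-only peaks (284 summits) rises to 30.99% in the first bin downstream of the TSS, while the 58 shared summits put 1.724% there and the 50 uncut-only summits 18%.

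Most of these promoters carried H3K9ac as well. An H3K9ac peak of the 6 dpa library overlapped 256 of the 297, or 86.2% (81.8 to 89.7), and 224 lay wholly inside H3K9ac peaks. In 253 of them the summit of the H3K9me3 peak fell inside an H3K9ac peak. The acetylation was not particular to 6 dpa, since 82.8% also overlapped an H3K9ac peak of uncut heart and 81.1% one at all 3 times. Among the uncut-only promoter peaks 39.7% (28.1 to 52.5) overlapped H3K9ac at 6 dpa, and among shared promoter peaks as called at 6 dpa 64% (52.7 to 73.9). Away from promoters the share was 23.6% in 6 dpa-only peaks, 7.39% in uncut-only peaks and 56.5% in shared peaks as called at 6 dpa. Few of the 297 returned at 9 dpa, where 29, or 9.76% (6.88 to 13.7), overlapped an H3K9me3 peak, against 72% (61 to 80.9) of shared promoter peaks. All 17 of the 297 with a score of at least 100 overlapped H3K9ac at 6 dpa, and 9 of them overlapped H3K9me3 at 9 dpa. Whether the 2 marks lie on the same chromosomes cannot be read from lists made on tissue, and the part of acetylated promoter chromatin in the calling of these weak peaks was not tested.

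**Figure D4:**
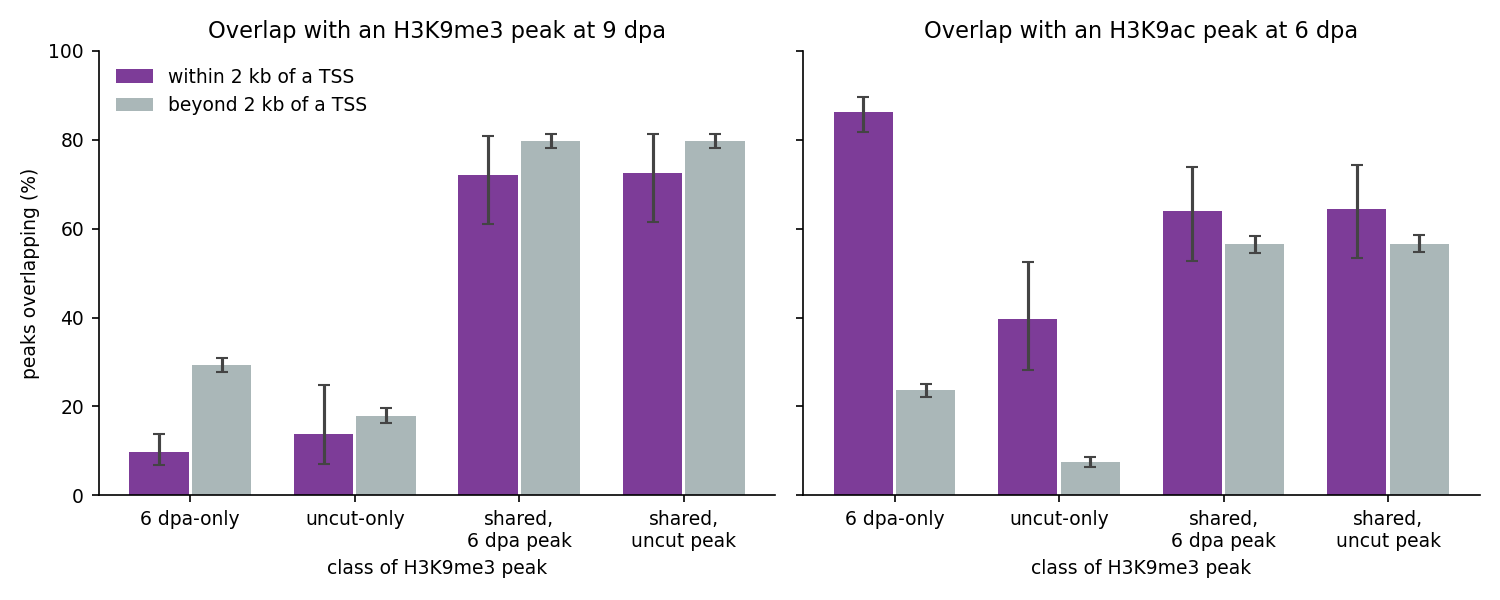
Share of H3K9me3 peaks that overlapped an H3K9me3 peak at 9 dpa (left) and an H3K9ac peak at 6 dpa (right), for peaks within 2 kb of a TSS (purple) and beyond it (grey), with Wilson 95% intervals. In the 6 dpa-only class the promoter peaks are low at left (9.76%) and high at right (86.2%), and the peaks beyond promoters stand at 29.3% and 23.6%.

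By gene, 463 genes had an H3K9me3 peak within 2 kb of a TSS at 6 dpa and 198 in uncut heart, among the 10068 genes that any list named. At 326 genes, 3.24% of all, the 6 dpa list had such a peak and the uncut list had none, and at 61 genes, or 0.606%, the reverse held. Both libraries had a peak at 137 genes. At the background scaling, which leaves 1418 peaks in the 6 dpa list and all 4488 in the uncut list, the counts were 13, 101 and 97. Only the 6 dpa list was cut there, and 46.6% of its shared peaks were kept, so this turned direction is partly set by that choice. The direction of the full lists held with lists of equal length (173 genes at 6 dpa alone and 70 in uncut heart alone). With both lists cut to scores of at least 100 it held too (42 and 9), where a weaker peak in the other list counted as none. An H3K9ac promoter peak at 6 dpa stood at 94.2% (91.1 to 96.2) of the 326 genes and at 67.2% (54.7 to 77.7) of the 61. Of the 9544 genes with no H3K9me3 promoter peak in either library 86.7% (86 to 87.4) had one. An H3K9ac peak alone could bring a gene into the count, so 86.7% is partly set by that choice and is no baseline over the genome. The median size of the H3K9ac promoter peak at 6 dpa was 176 tags in the 326 genes and 125 tags in the genes without H3K9me3. A 9 dpa H3K9me3 promoter peak was found at 28 of the 326 (8.59%, 6.01 to 12.1).

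Respiratory chain genes were among the 6 dpa-only promoters. Of 82 such genes 6 (7.32%, beside 3.24% of all genes) had a promoter peak at 6 dpa alone, and 0 had one in uncut heart alone. These were cox5b2 with 53 tags and cox6a2 with 27, which encode cytochrome c oxidase subunits, and ndufa11 with 38 and ndufb8 with 22, which encode parts of complex I. The other two were uqcrc1, of complex III, with 28 tags and atp5ib, of the ATP synthase, with 25. Each lacked a called peak in uncut heart and at 9 dpa and had an H3K9ac peak in all 3 libraries. The acetylation was not particular to them, since 80 of all 82 genes had it in uncut heart and 82 at 6 dpa. The cox5b2 TSS lies at 50062556 on chromosome 13, plus strand, and the summit was at -621 bp, that is, upstream. At uqcrc1, whose TSS is at 20276941 on chromosome 6, plus strand, it was 319 bp downstream.

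Histone, glycolysis and H3K9 enzyme genes were called in 1 or 2 cases a list. The histone H3.3 genes h3f3a (35 tags) and h3f3b.1 (36 tags) were 2 of 13 histone genes (15.4%) with a peak at 6 dpa alone. Of 22 genes of glycolysis and the metabolic switch 2 (9.09%) had one: eno1a, an enolase, with 34 tags and pdk4, a kinase that restrains pyruvate oxidation, with 33. Over all genes the share was 3.24%, and the shares of these lists rest on 2 genes each. The H3K9 methyltransferase gene setdb1a had a peak of 33 tags at 6 dpa alone, with its summit 193 bp downstream of the TSS at 9192622 on chromosome 19, plus strand. The gene of another such enzyme, ehmt2 (G9a in mammals), had a peak of 14 tags in uncut heart alone. They were the 2 of 30 genes for writers, erasers and readers of the mark with a promoter peak at either time. The 6 dpa peaks named here held 33 to 36 tags, against a median of 36 over all 6 dpa peaks, and each gene also carried H3K9ac in all 3 libraries. So did most of their lists: at 6 dpa H3K9ac was called at 13 of 13 histone, 22 of 22 glycolysis and 29 of 30 H3K9 enzyme genes.

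Regeneration genes were touched singly. Of 25 regeneration signalling genes 1 had a 6 dpa-only peak, socs3b, a feedback inhibitor of JAK/STAT signalling, with 36 tags and a summit at -500 bp from its TSS. Of 20 AP-1 and immediate early genes it was jund, with 35 tags, and of 36 cell cycle genes pcna, the clamp of replicative polymerases, with 32 tags and a summit 68 bp downstream of the TSS. The erythrocyte list (17 genes) held fech, the last enzyme of heme synthesis, with 36 tags at 6 dpa alone. The shares of these lists, 4%, 5%, 2.78% and 5.88%, rest on 1 gene each and stand near the 3.24% of all genes. No gene of the contractile (15 genes), calcium handling and conduction (10), cardiac transcription factor (15), epicardial (6), endothelial (17), extracellular matrix (15) or leukocyte (9) lists had a promoter peak at either time. The same held for 6 germline, 3 hox and 28 protocadherin genes and for 15 genes of immune multigene families. Over all 10068 genes, 9544 had no H3K9me3 promoter peak in either library. Whether these lists depart from that share was not tested.

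Large gene families were set beside the share of all genes. Genes with provisional symbols were near the 3.24% of all genes with a promoter peak at 6 dpa alone. The share of solute carrier genes was below that value, and the share of znf genes above it, on 2 genes each. In uncut heart alone the solute carrier share was above the 0.606% of all genes, again on 2 genes. Of 172 solute carrier genes 2 had a promoter peak at 6 dpa alone, slc25a33 (26 tags), a mitochondrial nucleotide carrier, and slc2a12 (20 tags), a glucose transporter. Another 2 had one in uncut heart alone, slc24a2 (14 tags) and slc8a2a (13 tags), both sodium and calcium exchangers, and neither carried H3K9ac in any library. Of 47 genes with znf symbols, znf143a (26 tags) and znf592 (21 tags) had a peak at 6 dpa alone, and znf692 had 36 tags at 6 dpa and 20 in uncut heart. Genes with provisional symbols had a peak at 6 dpa alone in 41 of 1261 cases (3.25%). None of the 4 marker genes of other tissues had a promoter peak at either time.

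Several gene families grouped by symbol after the calls had been seen, and so described only, showed what the 326 genes hold. Over all genes, 3.24% had a promoter peak at 6 dpa alone and 0.606% in uncut heart alone. Among 77 chromatin regulator genes 11 (14.3%) had one at 6 dpa alone and 0 in uncut heart alone. The 11 included ctcf, which encodes an insulator protein, the remodeler gene smarca5 and the corepressor gene sin3aa. Of 86 splicing and RNA processing genes 10 (11.6%) had one at 6 dpa alone, including sf3b3, snrpd1, fus and sfpq. Among 142 vesicle transport genes 13 (9.15%) had such a peak, and 1 had a peak in uncut heart alone. The nuclear pore gave 3 of 14 genes (21.4%), nup43, nup85 and nup133. The ubiquitin group, with 5 of 165 (3.03%), was near the share of all genes, and of 63 mitochondrial ribosomal protein genes none had a 6 dpa-only peak. Of 84 RNA polymerase and general transcription factor genes 4 (4.76%) had such a peak, and of 58 translation initiation factor genes 4 (6.9%). The polymerase, translation factor and mitochondrial ribosomal lists each held 1 gene with a peak in uncut heart alone, and the ubiquitin list 2. H3K9ac at 6 dpa was near universal in these groups whatever their H3K9me3, counting only genes that a list named. It was called at 75 of all 77 chromatin regulator, 86 of all 86 splicing and 158 of all 165 ubiquitin genes.

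Among genes with a promoter peak at 6 dpa and none in uncut heart, those with the most tags had long peaks, mostly with the summit away from the start site. A 6 dpa-only peak at mir430 start sites, chr4:28743892-28747298, held more, 926 tags over 3407 bp. Genes of the mir430 cluster do not appear in this ranking, though 1 of them, mir430a-11, had a peak at 6 dpa and none in uncut heart. Outside that cluster, the 10 genes with the most tags ran from arrb2a to hmgcll1. The first, a beta-arrestin gene, had 251 tags over 2983 bp, and the last, a ketogenic lyase gene, 82 tags over 1584 bp. The summit at arrb2a was at -1948 bp from its TSS, and the peak scored 56.33. At mccc2, which encodes a subunit of the leucine-degrading enzyme methylcrotonyl-CoA carboxylase, it was at -698 bp, with 93 tags at 6 dpa, no peak in uncut heart and 69 tags at 9 dpa. The gene nrip2 had 124 tags at 6 dpa and 77 at 9 dpa, and hmgcll1 had 157 at 9 dpa and no H3K9ac in any library. Provisional symbols made up 6 of the 10: zgc:171957 (122 tags), zgc:171298 (91), zgc:92591 (86), zgc:100951 (85), zgc:174972 (84) and LOC796505 (83). Ranking by raw tags favours long peaks, and 9 of these 10 were over 1500 bp long, against a median of 813 bp in 6 dpa-only promoter peaks.

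The uncut-only promoter genes, from the shallower library, had few tags. The 10 highest ran from hps3, a gene for the biogenesis of lysosome-related organelles, with 38 tags, to anxa3b, an annexin gene, with 20 tags. Between them were rnf170 (34 tags), dazap1 (31), zgc:112466 (26), tfec (24), mansc1 (23), adrb3b (22) and rassf1 (22), and a transcript without a symbol (23). Of these, adrb3b, a beta-adrenergic receptor gene, had the highest score, 134.1, with 22 tags over 614 bp in uncut heart, no peak at 6 dpa and 20 tags at 9 dpa. A peak at 9 dpa was also called at hps3 (28 tags) and mansc1 (27 tags), so these sites were missing from the 6 dpa list and present in the lists on either side of it. The genes tfec, mansc1 and adrb3b had no H3K9ac promoter peak in any library.

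Both libraries marked 137 genes, and 56 of them were mir430 genes. These encode the microRNA family that clears maternal messages in the early embryo, and their start sites, from 28731623 to 28746780 on chromosome 4, share the same peaks. The cluster held 2843 tags in 3 peaks over 10518 bp at 6 dpa and 863 tags in 2 peaks over 6586 bp in uncut heart, and 2480 tags in 2 peaks at 9 dpa. Per kb this was 24.96 times the background at 6 dpa, 31.96 times in uncut heart and 27.82 times at 9 dpa. One member, mir430a-11, had a peak in its window at 6 dpa and none in uncut heart. Outside the cluster 81 genes were marked at both times. The most tags were at LOC795615 (2297 at 6 dpa and 1146 in uncut heart) and zgc:113276 (1991 and 1185), and the named genes included elp5, an Elongator subunit (824 and 375), ghitm, an inner mitochondrial membrane protein (278 and 163), and rps6, of the small ribosomal subunit (256 and 123). All of these also had H3K9me3 at 9 dpa and H3K9ac in all 3 libraries.

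Some genes marked in both lists belong to other lineages. The promoter window of pax3a, a neural crest and muscle precursor transcription factor gene, held 63 tags at 6 dpa, 56 in uncut heart and 55 at 9 dpa, with no H3K9ac in any library. Relative to the median shared site its log2 tag ratio was -0.64 ± 0.26 (SE from counting), that is, it carried fewer 6 dpa tags than the uncut count would give. The glutamate transporter gene slc1a2b, known from glia, had 26 tags at 6 dpa and 27 in uncut heart (-0.87 ± 0.40), also with no H3K9ac. The microRNA genes mir738 (78 and 34 tags) and mir7a-3 (46 and 28) were at 0.39 ± 0.30 and -0.09 ± 0.35. No H3K9ac was called at mir738, while mir7a-3 carried it at all 3 times (475 tags at 6 dpa, 330 in uncut heart). The trace amine receptor gene taar12a, of an olfactory family, had 51 tags at 6 dpa and 28 in uncut heart. It carried H3K9ac at 6 dpa (70 tags) and 9 dpa (77 tags) and none in uncut heart. The adult globin genes hbaa1 and ba1l share 1 site on chromosome 3, which had 69 tags over 1624 bp at 6 dpa and 15 over 836 bp in uncut heart (1.39 ± 0.41). Its called peak was wider at 6 dpa, and per kb it stood at 3.923 times the background at 6 dpa and 4.376 times in uncut heart. Divided by background, the tags of all shared sites had a median log2 ratio of -0.59. That site had no H3K9me3 peak at 9 dpa and carried H3K9ac at all 3 times (339 tags at 6 dpa, 226 in uncut heart).

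Tag counts at sites with a peak in both libraries ran together. The 2540 shared sites, of which 2499 joined 1 peak with 1 peak, had a median of 51 tags at 6 dpa and 30 in uncut heart. Across sites Pearson's r of log2 tags was 0.93, a description over sites that share their libraries and differ in width. The median log2 ratio of raw tags was 0.81 (0.78 to 0.83), and with each library divided by its background -0.59 (-0.62 to -0.57). The sign of the overall change thus depends on the scaling, and single sites are given relative to the median. At least 2-fold above it were 77 sites (3.03%), and at least 2-fold below it 74 (2.91%). All of these differed from the median by more than their counting interval. That follows largely from the 2-fold cut, since the median counting SE over all sites was 0.34 in log2, and it adds no support. With 1 library a side, these shares describe the spread of sites around the median.

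Sites that also carried H3K9ac stood higher at 6 dpa than sites without it. Relative to the median of all shared sites, the 1009 sites with H3K9ac at all 3 times had a median log2 ratio of 0.14 (0.11 to 0.19), with 44 at least 2-fold above and 2 below. The 806 sites with no H3K9ac had a median of -0.18 (-0.23 to -0.15), with 11 above and 51 below. Per kb of called width the medians were 0.90 and 0.70, against 0.82 over all sites, all before the median is taken off. The groups also differed in strength, with 91 tags at 6 dpa and 45 in uncut heart at sites with H3K9ac and 34 and 23 at sites without, and the part of strength in the difference was not tested. The 76 sites near a TSS had a median of 0.06 (-0.07 to 0.19) and the 296 sites on the long arm of chromosome 4 one of -0.06 (-0.13 to 0.02), both intervals including 0.

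**Figure D5:**
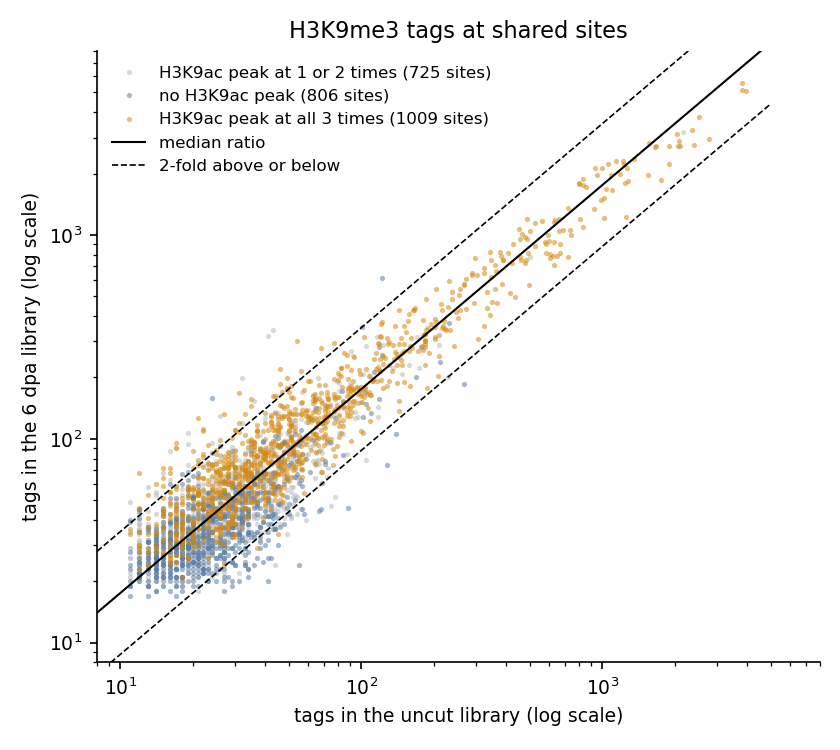
Raw H3K9me3 tags at the 2540 shared sites at 6 dpa (y axis, log scale) against uncut heart (x axis, log scale), coloured by the presence of H3K9ac peaks; the solid line is the median ratio and the dashed lines are 2-fold above and below it. Sites with H3K9ac at all 3 times (orange) lie mostly at or above the line at low counts, and 44 of them pass the upper dashed line.

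The sites with the most extreme ratios differed in called width. The largest ratio was at chr5:42612985-42618723, in an intergenic region, with 340 tags over 5739 bp at 6 dpa and 43 tags over 969 bp in uncut heart. Its log2 ratio was 2.17 ± 0.23 above the median, and per kb of called width it was -0.40 relative to the median per kb. At chr23:32684828-32690554 there were 318 tags over 5727 bp at 6 dpa and 41 over 998 bp in uncut heart, which gave 2.14 ± 0.24 for tags and -0.38 per kb. The 5 highest sites ranged from -0.47 to 0.42 per kb. The lowest ratio was at chr9:50157527-50159123, inside ttc21b, with 24 tags over 731 bp at 6 dpa and 55 over 1597 bp in uncut heart, which gave -2.01 ± 0.35 for tags and -0.89 per kb. At the 5 highest sites the called peak was wider at 6 dpa, and in 4 of them the density per kb was below the median.

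Most of the peaks with the highest tag counts overlapped peaks of the other marks and times. The most tags at a shared site were at chr11:17430136-17434948, with 5578 at 6 dpa and 3823 in uncut heart, and at chr23:16243482-16248393, with 5161 and 3788. Both lay over 80 kb from the nearest annotated gene and carried H3K9me3 at 9 dpa and H3K9ac at all 3 times. The 6 dpa-only peak with the most tags, chr7:52739545-52746591, held 6741 tags in 7047 bp against a local background of 692.7 reads per kb. The nearest uncut peak was 2753 bp away, and the 6 dpa-only peak overlapped H3K9me3 at 9 dpa and H3K9ac at all 3 times. On chromosome 17 a 6 dpa-only peak at 39985561-39993597 (4560 tags) had an uncut peak 499 bp away, and the uncut-only peak at 40009900-40016091 (481 tags) a 6 dpa peak 3202 bp away. Of the 5 6 dpa-only peaks with the most tags, 3 had an uncut peak within 5 kb. The farthest from any was chr21:25802148-25809747, with 2759 tags at 6 dpa, a 9 dpa peak and no H3K9ac, and with its nearest uncut peak 936803 bp away.

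Few list-only peaks were of that adjoining kind. The nearest uncut peak was within 5 kb for 6.9% of 6 dpa-only peaks, and the nearest 6 dpa peak was within 5 kb for 9.14% of uncut-only peaks. The median distances were 74.58 kb and 51.88 kb. Among uncut-only peaks the most tags were at chr14:28471901-28479156, with 557 tags, 1946 bp from a 6 dpa peak, and the highest score, 262.9, was at chr22:27713790-27715241, with 72 tags in uncut heart and a 9 dpa peak, 19990 bp from the nearest 6 dpa peak. At chr13:13442924-13443264 the uncut library had 20 tags in 341 bp with a score of 222.1, and neither H3K9me3 at 9 dpa nor H3K9ac was called there.

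The long arm of chromosome 4, which is late replicating and rich in repeats in zebrafish, held H3K9me3 in all classes. Taken from 28 Mb to the end, it makes up 3.63% of the span of the chromosomes. It held 446, or 12.2% (11.2 to 13.3), of the 6 dpa-only peaks, 175, or 9.09% (7.88 to 10.5), of the uncut-only peaks and 11.6% (10.4 to 12.9) of the shared peaks as called at 6 dpa. Per Mb these were 3.694, 2.655 and 3.497 times as many as on the rest of the genome. With both lists cut to scores of at least 100 and the classes formed anew, the order was lost, with 12.4% of 906 6 dpa-only and 13.4% of 367 uncut-only peaks. These sets include peaks that overlapped a weaker peak of the other list, so they are not the list-only classes above. On the arm 4 of the 446 6 dpa-only peaks were near a TSS, so few peaks were of both kinds. Without chromosome 4 the promoter share was 9.03% of 6 dpa-only and 3.19% of uncut-only peaks.

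Values also varied between the other chromosomes. The number of 6 dpa peaks over uncut peaks ran from 1.217 on chromosome 16 to 1.552 on chromosome 4, where 829 peaks stood at 6 dpa and 534 in uncut heart. The share of 6 dpa peaks that were shared ran from 34.5% on chromosome 14 to 50.2% on chromosome 12. Promoters took a larger share of the peaks at 6 dpa than in uncut heart on 24 of the 25 chromosomes. On chromosome 25 the shares were 8.43% of 178 and 1.64% of 122 peaks, and on chromosome 22 the order was turned (6.05% and 6.62%). At 6 dpa this share was 2.58% on chromosome 11 and 9.62% on chromosome 3. Shared peaks lay at chromosome ends more often than list-only ones: 25.9% of them fell in the last 2 Mb of a chromosome, at either end, against 14.9% of 6 dpa-only peaks (13.8 to 16.1) and 18.5% of uncut-only peaks (16.9 to 20.3). The share of the span within these ends was not computed. Shared peaks also had higher median scores (105.4 at 6 dpa against 63.12 in 6 dpa-only peaks), and the part of score was not tested.

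Recurrence at 9 dpa split the classes further. An H3K9me3 peak at 9 dpa overlapped 27.8% of 6 dpa-only peaks (26.3 to 29.2), 17.8% of uncut-only peaks (16.2 to 19.6) and 79.5% of shared peaks (77.9 to 81). No H3K9ac peak at any time was found on 57.1% of 6 dpa-only, 85.8% of uncut-only and 31.7% of shared peaks. In the weakest 6 dpa peaks, with scores from 50 to 60, 21.7% recurred at 9 dpa, and from 200 to 400 it was 97.9%. Shared peaks had higher median scores (105.4 at 6 dpa and 87.77 in uncut heart), while 6 dpa-only and uncut-only peaks were close (63.12 and 62.05). Over the whole lists the order was turned, with 49.1% of all 6 dpa and 53% of all uncut peaks recurring at 9 dpa. The background of the 9 dpa library was nearer to that at 6 dpa than to that of uncut heart. The part of that background in the higher recurrence of 6 dpa-only peaks was not tested.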

How the data were processed

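The peak lists were deposited as 1 list per library on danRer10. Bowtie2 2.2.5, MACS 1.4.2 and DiffBind 1.16.3 are named, without roles, per the submitters' processing notes; control library, settings and read totals are not given in the sources used here. The count of tags in each peak is raw, per the file headers. The score deposited by the authors equals 10 times minus log10 of a peak's p and has a lowest value of 50 (p of 1e-05). Fold enrichment sets a peak against its local background and was deposited by the authors, per the file headers.

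Rows that repeat a peak for further transcripts were dropped (23941 of 30157 at 6 dpa and 14704 of 19192 in uncut heart). Local background was recovered from score and tags by the Poisson distribution, and its most frequent value was taken as the library's depth. Peaks touching 2 kb either side of the TSS of any of 10299 RefSeq transcripts named in the 6 lists were called promoter peaks; other genes were not counted, and symbols were matched for 9689 of 9783 gene IDs to the GRCz12tu table. Chromosome spans run to the last annotated or called position in the lists. Code was tested on simulated data. Python 3.11.15, pandas 2.3.3, scipy 1.17.1 and statsmodels 0.14.6 were used.

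Genes named are those of listed groups with a promoter peak, and the 10 outside the mir430 cluster with the most promoter tags in each class. Peaks named are the 5 highest by tags or score and the 5 shared sites at each extreme. An item that this rule names is not reported here. Peaks, lists and rules were chosen with earlier results of these data known, and 8 of the 37 gene lists after the calls were seen. As each combination of mark and time was sequenced as 1 library, no replicate spread and no p between times could be had.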

Additional observations from a re-analysis of the deposited data

How the results depend on the processing

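Values below follow the order 6 dpa, then uncut heart. With scores of at least 100 in both lists, 47.4% of 6 dpa and 68.9% of uncut peaks were shared, and 80% and 87.4% when only the list counted was restricted. Where lists were cut, classes were formed anew, so a list-only peak at the strict score could overlap a weaker peak of the other list. With the 6 dpa list shortened to the 4488 highest scores the shares were 51% and 51.1%, at the background scaling 84.3% and 26.8%, and with reciprocal overlap of 50% they were 38.9% and 53.9%. The promoter share of 6 dpa-only peaks was 3.75% at the strict score, 7.05% in the shortened list, 4.93% at the background scaling, and 6.98% and 11.4% with windows of 1 and 5 kb. For uncut-only peaks the windows gave 2.02% and 7.06%. For all 6 dpa peaks the same 5 settings gave 3.83%, 4.95%, 3.53%, 4.84% and 9.27%, and for all uncut peaks the windows gave 1.87% and 6.6%. On the chromosome 4 long arm 6 dpa-only peaks stood at 13.3% in the shortened list and 10.2% with the arm from 35 Mb, uncut-only peaks at 13.4% at the strict score, and shared peaks at 13.3% at the background scaling and 10.1% from 35 Mb.

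Genes with a promoter peak at 6 dpa alone numbered 42 at the strict score, 173 in the shortened list and 13 at the background scaling. Genes with one in uncut heart alone numbered 9, 70 and 101 in the same settings, and 143 with a window of 5 kb. Both libraries marked 88 genes at the strict score, 231 with the 5 kb window and 81 without the mir430 genes. The median log2 tag ratio of shared sites turned from 0.81 to -0.59 when divided by background. At the strict score list-only peaks had median lengths of 1145 bp and 938 bp and medians of 58 and 30 tags. With repeated rows kept, the 6 dpa-only medians were 3407 bp and 926 tags, which is 1 peak of the mir430 cluster repeated in 7810 rows. Of 86 alternatives over 17 results 41 stayed within the interval of the value reported or within 1.5 times a count, 44 moved further and 1 changed sign. A change of sign was looked for only in the median log2 tag ratio. Orders between the lists also turned, in gene counts and overlap shares at the background scaling and on the chromosome 4 long arm at the strict score. Apart from the repeated rows and the background division, the cause of these moves was not tested. The scaling to shared sites, the sets without chromosome 4 and without mir430 genes were added after the data were seen. No paired analysis was possible because each mark and time had 1 library. The smallest called peak held 17 tags at 6 dpa and 11 in uncut heart, and weaker sites were not detectable at this depth.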
